A study of Saccharomyces cerevisiae with 16 samples.

Results

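The hypoxic genes of budding yeast (Saccharomyces cerevisiae) described here are ANB1, HEM13, AAC3, COX5B, CYC7, TIR1, TIR2, TIR3, DAN1 and ROX1, which make 10 of the 5449 genes with a probe set on Affymetrix Yeast Genome 2.0 arrays. ANB1 was chosen by its measured change in newly synthesized RNA labelled Taf4, where 3 of 4360 tested genes had a lower value, and the others for their known place in the response to low oxygen. The study asked how far transcription depends on TFIID, the general factor that brings the TATA-binding protein to promoters, by depleting the nucleus of its subunit Taf4 or Taf5. The method, called anchor-away, puts an FRB tag on the protein, and rapamycin then ties the tag to FKBP12 on a ribosomal protein that is exported to the cytoplasm.

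The arrays were labelled Taf4 or Taf5, newly synthesized or steady-state, and with rapamycin or with its solvent DMSO, which gave 8 groups of 2 samples. Cells grew in YPD at 30 °C, each culture was divided, and rapamycin or DMSO was given for 30 min before 5 mM 4-thiouracil marked new RNA for 6 min. The protocol names 1 µg/mL rapamycin and the design text 5 µM. Steady-state samples are total RNA, and newly synthesized samples are the thiolated RNA purified from it. Fission yeast (Schizosaccharomyces pombe) served as a spike-in: its cells, also given 4-thiouracil, were added as 1 part to 3 parts of S. cerevisiae. All 16 genotype labels read alike, those of the samples titled Taf5 included: a W303 strain of mating type MATalpha with tor1-1, which makes TOR signalling insensitive to rapamycin, fpr1::NAT, FKBP12 copies on RPL13A and TAF4-FRB::HYGRO. The controls therefore carried the same tags, no untagged strain was given rapamycin, and drug effects and depletion cannot be told apart. The oxygen supply of the cultures is not given in the sources used here.

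The 16 columns held 10 distinct arrays, because 6 of the 8 columns labelled Taf5 equalled a column labelled Taf4 divided by 5, to within 0.001 signal units. In each such pair the rapamycin label was shared, and the strain and fraction labels differed. The results below therefore use the 8 Taf4-labelled arrays, with the 2 uncopied Taf5-labelled arrays (newly synthesized with rapamycin replicate 2, and steady-state with DMSO replicate 2) set beside them. Which label of a copied pair is right cannot be told from the values. Anchor-away moves a protein, so TAF4 RNA does not check the rapamycin labels; in steady-state RNA it read 6.80 and 7.08 with rapamycin, against 8.46 and 8.42 with DMSO. The mating type matched its label: the 4 MATalpha marker genes lay between the 80.1st and 99.1st percentile of all genes by mean signal, and the 7 MATa marker genes between the 3.1st and 10.2nd. Levels are log2 signal after each array was shifted to an equal S. pombe median, and changes are log2 rapamycin over DMSO. The labels do not state separate cultures for replicates, and p-values then measure only how far these samples spread, possibly for technical reasons.

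Yeast uses 1 set of genes when oxygen is plentiful and another when it is scarce, and heme, whose synthesis needs oxygen, reports which state the cell is in. With heme present, the activator Hap1 and the Hap2/3/4/5 complex drive respiratory genes and the repressor Rox1, and Rox1 recruits the Tup1-Cyc8 corepressor to hypoxic genes such as ANB1. When oxygen falls, repression is lifted, and Upc2 and related regulators switch on sterol uptake and the anaerobic cell wall mannoproteins of the TIR and DAN families. Several hypoxic genes encode the low-oxygen version of a protein that has an aerobic counterpart: ANB1 with HYP2, CYC7 with CYC1, COX5B with COX5A, and AAC3 with PET9 and AAC1.

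The hypoxic genes did not all move one way. In steady-state RNA with rapamycin ANB1 fell 4.95-fold, HEM13 1.91-fold and TIR2 1.84-fold, against 2.26-fold for the median gene, while CYC7 rose 2.70-fold and COX5B, TIR1, TIR3 and ROX1 did not pass the test. Of the 8 hypoxic genes above the filter on low signal, 3 passed as lower against 86.8% of the 4360 genes tested, and 1 passed as higher against 1.42% of them (limma, adjusted p threshold 0.05). AAC3 and DAN1 had too little signal for the filter, and both passed as lower when all 5449 genes were fitted. The median change was -0.57 over all 10 hypoxic genes, -0.17 over the 8 above the filter and -1.17 over all genes tested. The 10 changes spanned 3.74 log2 units.

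This steady-state contrast is the comparison that was tested, because it shares no array with the newly synthesized contrast in which ANB1 was picked. Both come from 1 fit, and the labelled RNA was purified from total RNA, so the fractions may stem from the same cultures. The spike-in itself was uneven in it: with the same fit, 306 of 1397 S. pombe probe sets passed as lower and 451 as higher in steady-state RNA, where their changes had an SD of 0.70. In newly synthesized RNA 0 passed in either direction by limma, 45 had an unadjusted p under the same threshold, and the SD was 0.16. The part of this unevenness in the steady-state changes below was not tested beyond the loess scaling given with the other scalings.

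**Figure D1:**
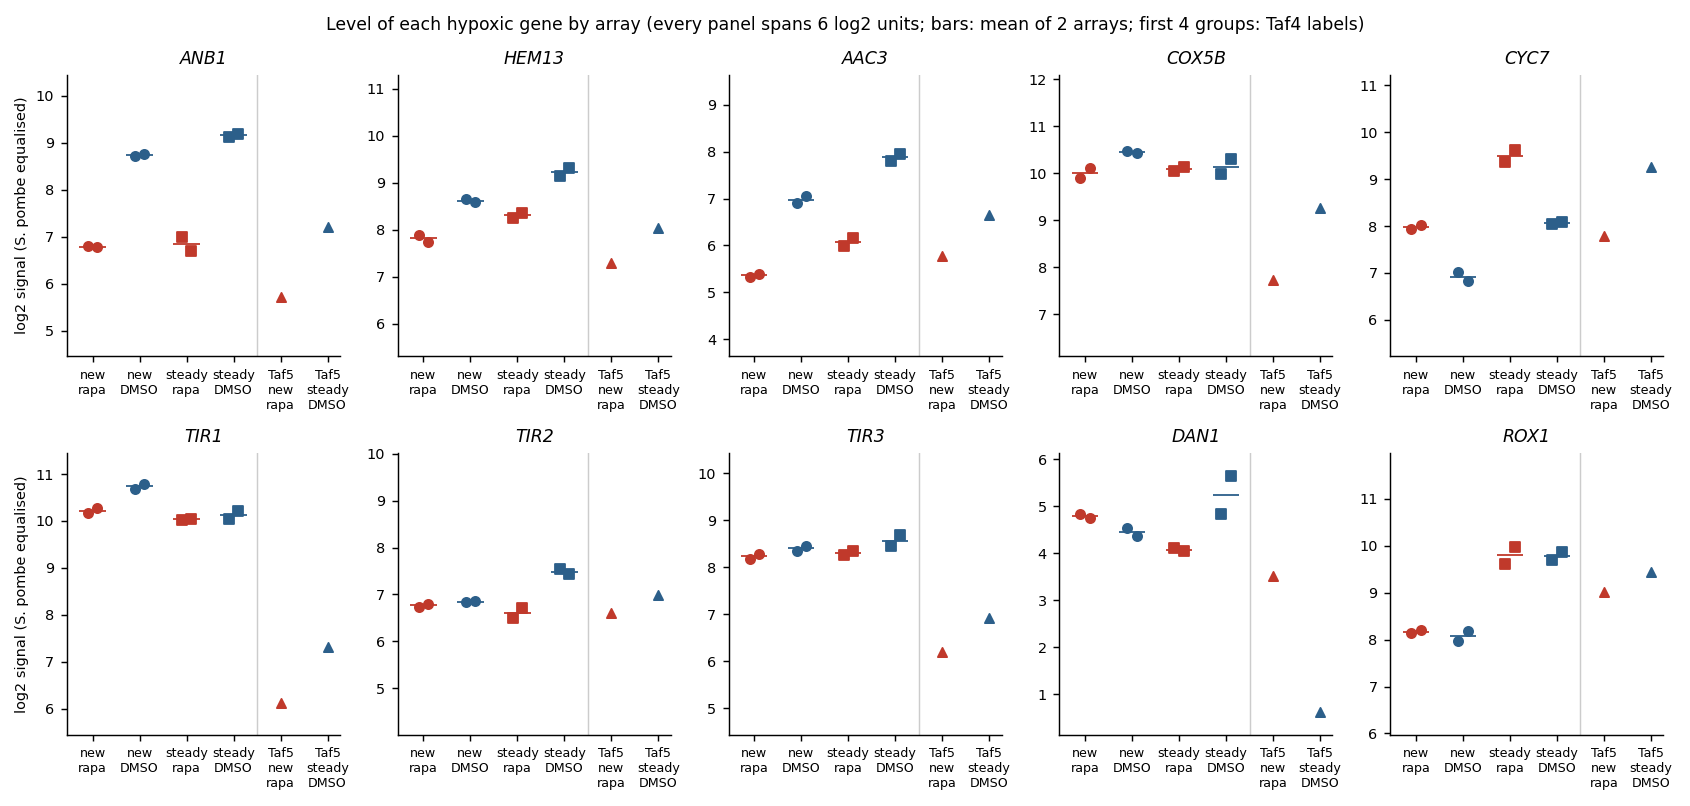
Level of each hypoxic gene by array. The vertical axis is log2 signal after equal S. pombe medians, each panel spans the same number of log2 units, points are arrays and bars the mean of 2 arrays; the first 4 groups carry Taf4 labels and the last 2 are the single uncopied Taf5-labelled arrays. ANB1 is lower in both rapamycin groups than in the matching DMSO groups, CYC7 is higher in both, and ROX1 differs mainly between the newly synthesized and steady-state labels. The median gene is also lower in newly synthesized than in steady-state RNA.

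ANB1 encodes the hypoxic isoform of the translation factor eIF5A and is the textbook target of Rox1. In steady-state RNA its level was 6.99 and 6.70 with rapamycin, against 9.13 and 9.18 with DMSO. Both rapamycin arrays lay well below both DMSO arrays. The change was -2.31 (SE 0.21, adjusted p = 1.3e-10 by limma), and 44 of 4360 genes had a lower value. It stood 1.14 log2 units below the median gene (-1.14 relative to it).

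Newly synthesized RNA gave ANB1 readings of 6.79 and 6.78 with rapamycin, against 8.71 and 8.76 with DMSO. The replicates of each group nearly coincided and the groups were far apart. This change of -1.95 (SE 0.21, a 3.86-fold fall) is what chose the gene and is given without a test. Ordered by level, ANB1 was highest in steady-state DMSO RNA at 9.15 ± 0.04 (SD, n = 2) and then in newly synthesized DMSO RNA at 8.73 ± 0.03 (SD, n = 2). Below these came the uncopied Taf5-labelled steady-state DMSO array at 7.20, and the Taf4 rapamycin groups at 6.84 ± 0.20 in steady-state and 6.78 ± 0.01 in newly synthesized RNA (SD, n = 2 each). Those rapamycin groups did not differ beyond their spread. The uncopied Taf5-labelled newly synthesized rapamycin array was the lowest, at 5.72. This order includes the lower level of the median gene in newly synthesized RNA, at -0.82 with rapamycin and -1.27 with DMSO.

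HYP2, the aerobic eIF5A gene, read 13.06 and 13.14 with rapamycin in steady-state RNA, against 13.32 and 13.67 with DMSO. Its arrays did not overlap either, but the change of -0.40 (SE 0.21) did not pass (adjusted p = 0.0785 by limma). That depended on the scaling. With a loess curve fitted to the spike-in HYP2 passed as lower (-1.94, adjusted p = 3.09e-13 by limma), where ANB1 changed by -2.35. Relative to the median gene HYP2 then stood at -0.40 and ANB1 at -0.81. With equal S. cerevisiae medians HYP2 passed as higher (0.87, adjusted p = 0.000459 by limma). ANB1 and HYP2 are closely similar genes, and how far their probe sets pick up each other's transcript was not tested. Without steady-state DMSO replicate 1 the HYP2 change was -0.58 and passed (adjusted p = 0.0188 by limma).

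AAC3, a mitochondrial ADP/ATP carrier used without oxygen, had a change of the same sign as ANB1 at low signal. In steady-state RNA it read 5.99 and 6.16 with rapamycin, against 7.81 and 7.95 with DMSO. The groups were separated by more than 1 log2 unit in every pairing of arrays. The change was -1.80 (SE 0.19, 3.48-fold lower, adjusted p = 9.25e-05 by limma without the filter). Newly synthesized AAC3 RNA read 5.34 and 5.39 with rapamycin, against 6.91 and 7.04 with DMSO, a change of -1.61. The groups were as clearly apart there. Its mean signal stood at the 18.2nd percentile of genes, below the 20% that the filter removes.

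Its aerobic relatives had different values. AAC1, a minor ADP/ATP carrier of respiring cells, read 7.52 and 8.04 with rapamycin in steady-state RNA, against 9.44 and 9.64 with DMSO, and fell 3.39-fold (change -1.76, SE 0.23, adjusted p = 1.89e-08 by limma). Its groups did not overlap. PET9, the main carrier, read 11.16 and 10.72 with rapamycin, against 11.20 and 11.41 with DMSO. The change of -0.37 did not pass (adjusted p = 0.11 by limma), and it was -0.58 without rapamycin replicate 1. With a loess curve fitted to the spike-in PET9 passed as lower (-1.425, adjusted p = 5.71e-08 by limma). With equal S. cerevisiae medians it passed as higher (0.90, adjusted p = 0.00542 by limma).

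HEM13 encodes coproporphyrinogen oxidase, an oxygen-requiring enzyme of heme synthesis whose gene is induced when heme runs short. In steady-state RNA it read 8.25 and 8.36 with rapamycin, against 9.15 and 9.32 with DMSO. The groups did not overlap, and the fall of 1.91-fold passed (change -0.94, SE 0.21, adjusted p = 0.000132 by limma). Relative to the median gene HEM13 stood at 0.24, so it fell less than most genes. Its newly synthesized RNA read 7.89 and 7.74 with rapamycin, against 8.65 and 8.59 with DMSO, a change of -0.81 that was close to the median gene (-0.03 relative to it).

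The other 7 heme synthesis genes all passed as lower in steady-state RNA and 0 as higher, adjusted or unadjusted (limma), against 86.8% and 1.42% of all genes, but with equal S. cerevisiae medians 4 passed and HEM3 and HEM15 turned sign. The count is near that background. Their median was -1.63 against -1.17 over all genes. HEM2, the aminolevulinate dehydratase, had the lowest value at -1.95, followed by HEM12 at -1.72, HEM14 at -1.68 and HEM1, the aminolevulinate synthase that opens the pathway, at -1.63. HEM4 changed by -1.47, HEM15, the ferrochelatase, by -1.10 and HEM3 by -1.02. HEM13, at -0.94, had the highest value of the 8 genes of the pathway in this fit, and its difference from the others was not tested.

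CYC7 moved the other way. It encodes isoform 2 of cytochrome c, the less abundant form, which is also known to increase in stress and when glucose is scarce. In steady-state RNA it read 9.36 and 9.62 with rapamycin, against 8.04 and 8.08 with DMSO. Both rapamycin arrays were higher than both DMSO arrays by more than 1 log2 unit. The change was 1.43 (SE 0.21, adjusted p = 2.55e-07 by limma), which 10 of 4360 genes exceeded, and it stood 2.61 above the median gene.

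Newly synthesized CYC7 RNA read 7.95 and 8.02 with rapamycin, against 7.01 and 6.83 with DMSO. The groups did not overlap, and the change was 1.06, or 2.09-fold. By level, CYC7 was highest in steady-state rapamycin RNA at 9.49 ± 0.18 (SD, n = 2), and the uncopied Taf5-labelled steady-state DMSO array came next at 9.25. Steady-state DMSO RNA at 8.06 ± 0.02 and newly synthesized rapamycin RNA at 7.98 ± 0.05 (SD, n = 2 each) were close neighbours. The uncopied Taf5-labelled newly synthesized rapamycin array read 7.79, and newly synthesized DMSO RNA was the lowest at 6.92 ± 0.13 (SD, n = 2). This order too includes the lower level of the median gene in newly synthesized RNA.

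CYC1, the main cytochrome c gene of respiring cells, did not follow CYC7 in steady-state RNA under the scaling used here. In steady-state RNA CYC1 read 10.23 and 10.44 with rapamycin, against 10.11 and 10.38 with DMSO. These ranges overlapped, and the change of 0.09 did not pass (adjusted p = 0.696 by limma). In assembly R64, ANB1 and CYC1 are direct neighbours on chromosome X with no protein gene between them. Under this scaling CYC1 thus changed little while ANB1 fell. CYC1 passed as higher with the values as deposited (0.62, adjusted p = 0.00127 by limma) and with equal S. cerevisiae medians (1.36, adjusted p = 1.57e-05 by limma). With the loess curve it passed as lower (-0.63, adjusted p = 0.0149 by limma). Newly synthesized CYC1 RNA read 9.71 and 9.73 with rapamycin, against 9.41 and 9.56 with DMSO, without overlap.

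COX5B encodes the hypoxic form of subunit V of cytochrome c oxidase. In steady-state RNA it read 10.04 and 10.13 with rapamycin, against 9.99 and 10.29 with DMSO. The groups overlapped and the change of -0.06 (SE 0.21) did not pass (adjusted p = 0.802 by limma). The newly synthesized arrays read 9.89 and 10.10 with rapamycin, against 10.48 and 10.42 with DMSO, a change of -0.46 without overlap. COX5A, its aerobic counterpart, changed by 0.23 in steady-state RNA (adjusted p = 0.353 by limma), and by 0.67 without DMSO replicate 1, where it passed (adjusted p = 0.0134). Of the 5 aerobic counterparts, 1 passed, AAC1, as lower, and 0 as higher, adjusted or unadjusted (limma), against 86.8% and 1.42% of all genes. With the values as deposited 2 of the 5 passed as higher and with equal S. cerevisiae medians 4 did, while with the loess curve all 5 passed as lower. Differences between a hypoxic gene and its counterpart were not tested.

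**Figure D2:**
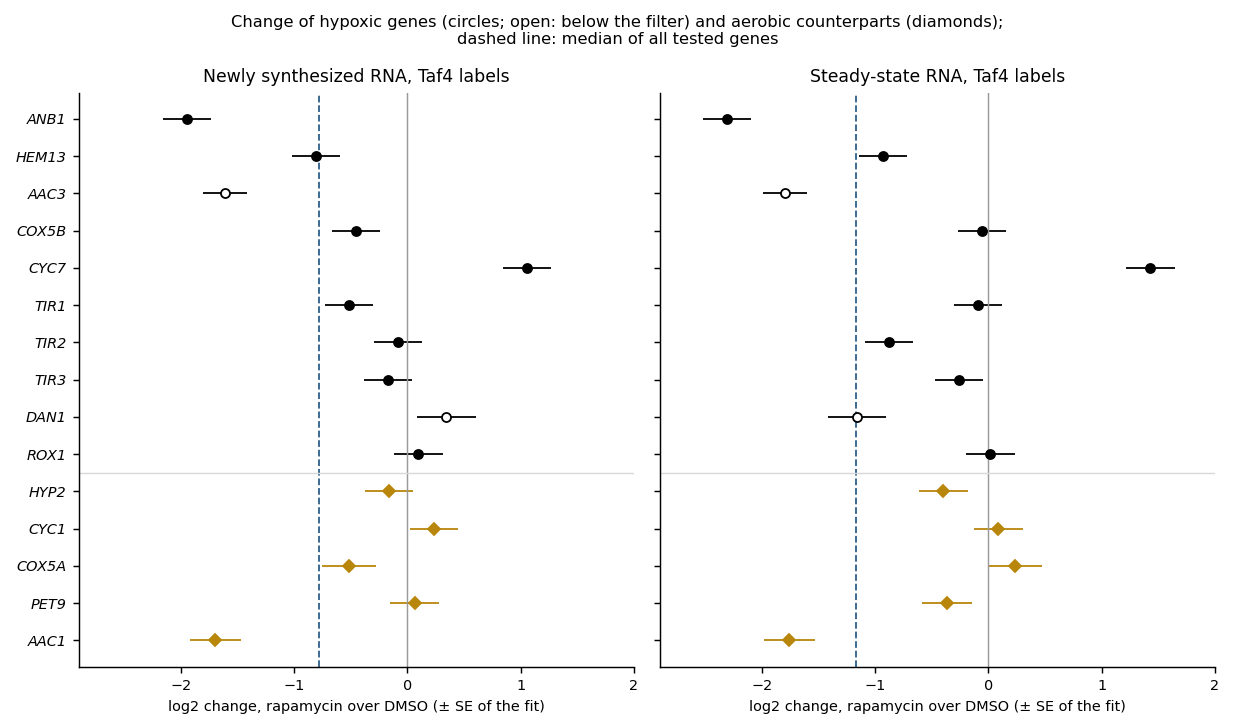
Changes of the hypoxic genes (circles, open where the filter on low signal left the gene out) and of their aerobic counterparts (diamonds). The horizontal axis is the log2 change, rapamycin over DMSO, with the SE of the fit, in newly synthesized and steady-state RNA labelled Taf4; the dashed line marks the median of all tested genes, at -0.78 and -1.17. ANB1, AAC3 and AAC1 lie left of the line in both fractions, and CYC7 lies furthest to the right.

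TIR1, TIR2, TIR3 and DAN1 encode serine-rich mannoproteins that yeast puts in its cell wall without oxygen, and TIR1 and TIR2 also respond to cold. TIR1 in steady-state RNA read 10.03 and 10.04 with rapamycin, against 10.04 and 10.21 with DMSO. The ranges overlapped and the change of -0.09 (SE 0.21) did not pass (adjusted p = 0.68 by limma). For newly synthesized RNA the TIR1 values were 10.16 and 10.28 with rapamycin, against 10.69 and 10.78 with DMSO, where the groups were apart and the change was -0.52.

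TIR2 in steady-state RNA read 6.50 and 6.71 with rapamycin, against 7.54 and 7.44 with DMSO. Its groups did not overlap, and the fall of 1.84-fold passed (change -0.88, SE 0.21, adjusted p = 0.000264 by limma). Its newly synthesized RNA read 6.73 and 6.81 with rapamycin, against 6.84 and 6.86 with DMSO, a change of -0.08. The rapamycin arrays were the lower ones there as well, by little.

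TIR3 in steady-state RNA read 8.26 and 8.34 with rapamycin, against 8.44 and 8.68 with DMSO. The groups did not overlap, but the change of -0.26 (SE 0.21) did not pass (adjusted p = 0.249 by limma). In newly synthesized RNA TIR3 read 8.18 and 8.29 with rapamycin, against 8.35 and 8.46 with DMSO, a change of -0.17. Over the 8 Taf4-labelled arrays TIR3 ranged over 0.50 log2 units and COX5B over 0.59, against 2.34 for the median gene.

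DAN1 had the lowest mean signal among the hypoxic genes relative to all genes, at the 4.2nd percentile. In steady-state RNA it read 4.10 and 4.04 with rapamycin, against 4.83 and 5.65 with DMSO. Both rapamycin arrays were lower, and the DMSO replicates lay further apart than those of any other hypoxic gene in that group. The change was -1.16 (SE 0.26, adjusted p = 0.00158 by limma without the filter), and it was -0.75 without DMSO replicate 2 and -1.57 without DMSO replicate 1. In newly synthesized RNA DAN1 read 4.83 and 4.75 with rapamycin, against 4.53 and 4.37 with DMSO, a change of 0.34 in the other direction.

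Of 15 other genes induced at low oxygen, 14 had a probe set and 7 had enough signal for the filter. These 7 passed as lower in steady-state RNA, against 86.8% of all genes, and 0 as higher, adjusted or unadjusted (limma); with equal S. cerevisiae medians 1 passed as lower. Their median was -1.35, and since only genes above the filter entered it, nothing more is read from it. AUS1, a sterol importer, fell 4.99-fold (change -2.32). HMG2, which makes mevalonate for sterols, changed by -1.52, FET4, a low-affinity iron transporter, by -1.53, and OSM1 and FRD1, the fumarate reductases, by -1.35 and -1.05. OLE1, the fatty acid desaturase, changed by -1.01. DAN2, named PAU23 in R64 and a member of the near-identical PAU family, changed by -0.70, and did not pass without DMSO replicate 2 (-0.44) or without rapamycin replicate 2 (-0.42).

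Below the filter, TIR4 changed by -2.35, DAN4 by -1.95 and PDR11, a second sterol importer, by -1.32. In R64 TIR2 lies directly between TIR4 and AUS1 on chromosome XV, DAN1 is next to DAN4 on chromosome X, and TIR3 is separated from PDR11 by 1 protein gene on chromosome IX. TIR2, with -0.88, thus lay between genes with the values -2.35 and -2.32. TIR3 with -0.26 and PDR11 with -1.32 also differed in value, and none of these differences was tested.

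**Figure D3:**
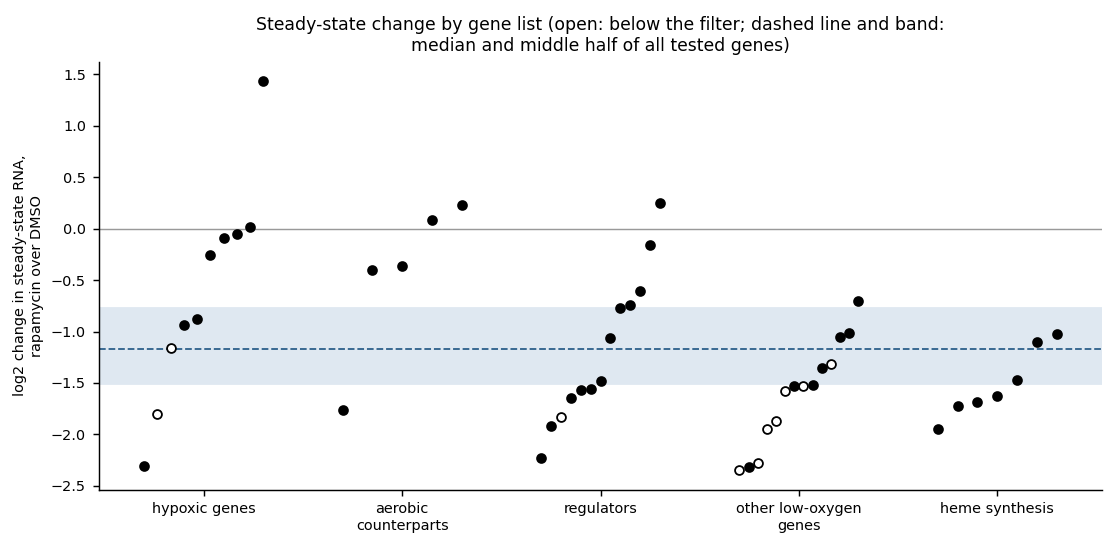
Steady-state changes in Taf4-labelled arrays by gene list. The vertical axis is the log2 change, rapamycin over DMSO, each point is a gene (open where the filter on low signal left it out), and the dashed line and band are the median and the interquartile range of all tested genes, from -1.51 to -0.77. The hypoxic genes run from ANB1 at -2.31 to CYC7 at 1.43, and the 7 heme synthesis genes from HEM2 at -1.95 to HEM3 at -1.02.

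ROX1 encodes the repressor of hypoxic genes and is itself switched on by heme. In steady-state RNA it read 9.62 and 9.97 with rapamycin, against 9.70 and 9.86 with DMSO. The DMSO values lay inside the range of the rapamycin values. The change was 0.02 (SE 0.22, adjusted p = 0.945 by limma). In newly synthesized RNA ROX1 read 8.13 and 8.21 with rapamycin, against 7.98 and 8.17 with DMSO, which also overlapped. Its level was lower in newly synthesized than in steady-state RNA by 1.62 with rapamycin (change -1.62) and by 1.70 with DMSO (change -1.70). The median gene was lower there too, at -0.82 with rapamycin and -1.27 with DMSO. The rapamycin and DMSO values of ROX1 overlapped in both fractions. That depended on the scaling: ROX1 passed as higher with the values as deposited (0.55, adjusted p = 0.00475 by limma) and with equal S. cerevisiae medians (1.28, adjusted p = 2.07e-05).

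Of the 13 other regulators 12 were tested in steady-state RNA, where 10 passed as lower and 0 as higher, adjusted or unadjusted (limma), against 86.8% and 1.42% of all genes. The count is near that background, and with equal S. cerevisiae medians 3 passed as lower and 5 as higher. Their median was -1.27, against -1.17 over all genes. UPC2, the sterol-responsive activator, fell 4.69-fold (change -2.23), and its paralog ECM22 changed by -1.92. CYC8 changed by -1.56 and TUP1 by -1.06, which together form the corepressor that Rox1 recruits. SUT1, a regulator of sterol uptake, changed by -1.57, and MGA2 and SPT23, the activators of OLE1, by -1.64 and -0.78. HAP3 changed by -1.48.

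HAP1, the heme sensor, and MOT3, a repressor that acts with Rox1, passed with smaller changes of -0.74 and -0.61. Neither passed without DMSO replicate 2 (HAP1 -0.54, MOT3 -0.26) or without rapamycin replicate 1 (HAP1 -0.42, MOT3 -0.46). HAP2 and HAP4 did not pass, with -0.16 and 0.25. HAP4, the activating subunit of the Hap complex, read 10.32 and 10.74 with rapamycin, against 9.86 and 10.71 with DMSO. The DMSO replicates of HAP4 were far apart, and without DMSO replicate 2 its change was 0.68 and passed (adjusted p = 0.0175 by limma).

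As a description without a test, newly synthesized RNA gave 3 of 8 hypoxic genes as lower, where 79.4% of genes passed, and 1 of 8 as higher, where 1.79% did. That contrast chose ANB1, and nothing is read from these counts. The median change there was -0.31 over the 8 genes and -0.78 over all genes, a 1.72-fold fall. The change lay below 0 in both fractions for 7 of the 10 hypoxic genes, above 0 in both for CYC7 and ROX1, and on opposite sides for DAN1. Over all tested genes even the upper quartile was below 0, at -0.77 in steady-state and -0.53 in newly synthesized RNA. A fall in both fractions is thus common, and nothing is read from the count of 7.

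**Figure D4:**
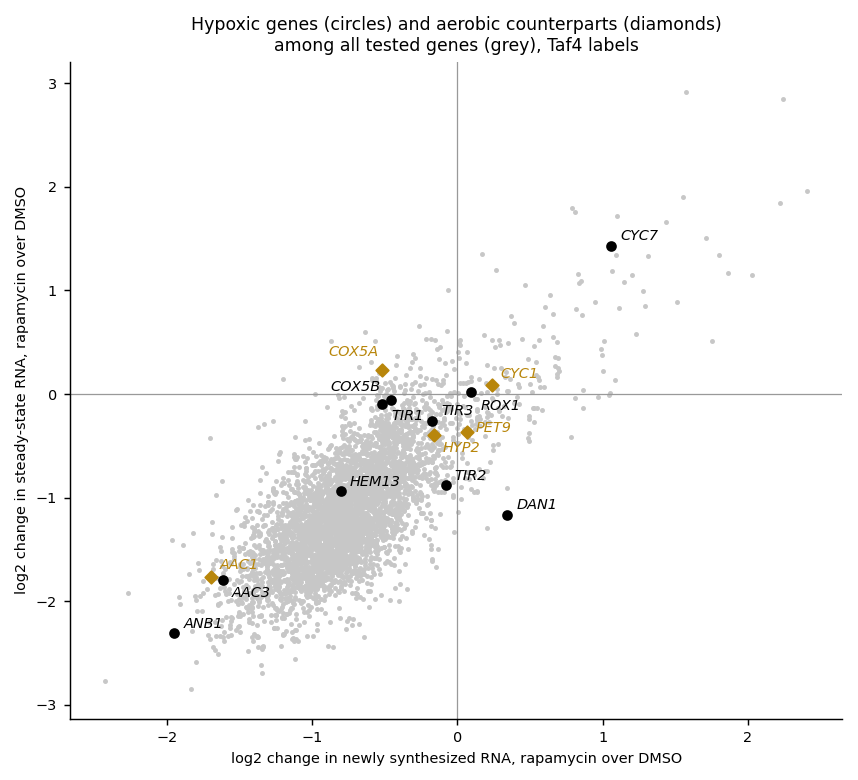
Changes in newly synthesized RNA (horizontal axis) and in steady-state RNA (vertical axis), both as log2 rapamycin over DMSO in Taf4-labelled arrays. Grey points are all tested genes, circles the hypoxic genes and diamonds their aerobic counterparts. ANB1 lies at the low end on both axes (-1.95 and -2.31), CYC7 at the high end (1.06 and 1.43), and TIR2 (-0.08 and -0.88) and DAN1 (0.34 and -1.16) have values nearer to or above 0 in newly synthesized RNA.

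The change in newly synthesized RNA minus that in steady-state RNA was 0.39 for the median gene. The lower quartile over all tested genes was 0.11, so most genes lay above 0. Of the 10 hypoxic genes 8 lay below the median gene on this difference and 2 above it. ANB1, at 0.36, and HEM13, at 0.13, were among the 5 of 8 hypoxic genes with a value above 0. TIR2 had the largest of these, 0.80, and DAN1 had 1.51 without the filter. COX5B, CYC7 and TIR1 lay below 0, at -0.40, -0.37 and -0.43. Without steady-state DMSO replicate 2 the value was above 0 for 3 of the 8, so that array decides part of this count.

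Set against steady-state RNA of the same treatment, newly synthesized RNA held less signal from most genes, by -0.82 for the median gene with rapamycin and -1.27 with DMSO. The spike-in was uneven here as well. With DMSO 363 of 1397 S. pombe probe sets passed as lower and 584 as higher (limma), with an SD of 0.92. With rapamycin 53 passed as lower and 93 as higher, with an SD of 0.36. TIR1 was above 0 in both, at 0.19 with rapamycin and 0.61 with DMSO. CYC7 was below the median gene with rapamycin (-1.51) and close to it with DMSO (-1.14). ROX1 was below the median gene in both. Newly synthesized over steady-state values of COX5B were -0.09 with rapamycin and 0.31 with DMSO, and those of ANB1 were -0.06 with rapamycin and -0.42 with DMSO. With a loess curve fitted to the spike-in, neither TIR1 nor COX5B stayed above 0 with DMSO.

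The uncopied Taf5-labelled arrays stood apart from the Taf4-labelled ones. On them TAF4 read 9.86 in newly synthesized rapamycin RNA and 10.49 in steady-state DMSO RNA, while the Taf4-labelled arrays of the same labels read 5.40 and 5.82, and 8.46 and 8.42. TAF5 read 7.15 on the Taf5-labelled array, against 8.12 and 7.97 on the Taf4-labelled ones, in newly synthesized rapamycin RNA. In steady-state DMSO RNA it read 7.59 on the Taf5-labelled array, against 10.50 and 10.55 on the Taf4-labelled ones. Each comparison has 1 array on the Taf5 side, so none was tested.

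In steady-state DMSO RNA, 9 of the 10 hypoxic genes read lower on the Taf5-labelled array than on both Taf4-labelled arrays, as did 82.4% of all 5449 genes, and the median gene differed by -0.88. ANB1 read 7.20 on the Taf5-labelled array, against 9.13 and 9.18 on the Taf4-labelled ones, a difference of -1.95. TIR1 read 7.32 on the Taf5-labelled array, against 10.04 and 10.21 on the Taf4-labelled ones, a difference of -2.81. Relative to the median gene ANB1 stood at -1.07 and TIR1 at -1.92.

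CYC7 was the exception, with 9.25 on the Taf5-labelled array against 8.04 and 8.08 on the Taf4-labelled ones, a difference of 1.19. CYC1 was also higher, by 1.88, and HAP1 was lower, at -2.32. DAN1 read 0.63 on the Taf5-labelled array, a signal near the bottom of the scale, against 4.83 and 5.65 on the Taf4-labelled ones. TIR3 differed by -1.64 and ROX1 by -0.33.

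In newly synthesized rapamycin RNA, 8 of the 10 read lower on the Taf5-labelled array than on both Taf4-labelled arrays, as did 29.5% of all genes, and the median gene was higher there by 0.44. TIR1 read 6.12 on the Taf5-labelled array, against 10.16 and 10.28 on the Taf4-labelled ones, a difference of -4.10. COX5B read 7.72 on the Taf5-labelled array, against 9.89 and 10.10 on the Taf4-labelled ones, a difference of -2.27. TIR3 read 6.19 there, against 8.18 and 8.29 on the Taf4-labelled ones, a difference of -2.05. These 3 genes had the lowest differences among the hypoxic genes on that array. ANB1 differed by -1.06 and CYC7 by -0.19, while AAC3 was higher by 0.41 and ROX1 by 0.84.

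Because the fraction label differed in all 6 copied pairs, the same arrays were also set, after seeing the data, against the Taf4-labelled group of the other fraction label. The Taf5-labelled steady-state DMSO array then read lower than both newly synthesized DMSO arrays for 7 of the 10 hypoxic genes and higher for 3, against 19.2% of all genes lower, with the median gene at 0.33. ROX1 turned to 1.37 and TIR2 to 0.15, while ANB1 (-1.53), TIR1 (-3.42) and CYC7 (2.33) kept their signs.

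The Taf5-labelled newly synthesized rapamycin array read lower than both steady-state rapamycin arrays for 9 of the 10 hypoxic genes and higher for 0, against 61.4% of all genes lower, with the median gene at -0.40. AAC3 turned to -0.31 and ROX1 to -0.78, and CYC7 was at -1.70. ANB1 (-1.12), TIR1 (-3.91), COX5B (-2.36) and TIR3 (-2.12) were lower in this pairing too. Strain label, fraction label, scan and any difference in culture cannot be told apart for these arrays.

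The genes nearest to ANB1 were not among the hypoxic genes above the filter. Likeness was the mean absolute difference of log2 profiles, each centred on its own mean, over the 10 distinct arrays, ranked over 4359 genes. The 5 nearest were THO1 (0.31), MF(ALPHA)2 (0.33), BNA5 (0.35), CWC24 (0.37) and TRM8 (0.37), against 0.76 for the median gene. Only genes above the filter were ranked, so AAC3 and DAN1 have no rank and their likeness to ANB1 was not measured. Of the ranked hypoxic genes HEM13 came first, at rank 370, followed by COX5B at rank 2516 and TIR3 at rank 3107. CYC7 was at rank 4351, near the far end. These arrays share their treatments and scaling and include those that chose ANB1. The 5 nearest were picked from all ranked genes, so the ranks are a description.

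The direction of several hypoxic genes depended on the scaling. With S. cerevisiae medians made equal across arrays the median change of all genes was 0.09, with the values as deposited it was -0.65, and with a loess curve fitted to the spike-in it was -1.54, against -1.17 here. ANB1 was lower and CYC7 higher under all 4 scalings, with ANB1 between -2.35 and -1.04 and CYC7 between 1.33 and 2.70. HEM13 and TIR2 turned to 0.33 and 0.39 with equal S. cerevisiae medians and did not pass there (adjusted p = 0.0682 and 0.0519 by limma). DAN1, fitted without the filter, turned to 0.10 with equal medians (adjusted p = 0.724 by limma), while AAC3 stayed below 0 at -0.53. COX5B and TIR1 passed as higher with the values as deposited and with equal medians, and as lower with the loess curve. ROX1 passed as higher with the values as deposited and with equal medians, and TIR3 with equal medians (1.01, adjusted p = 0.000164 by limma). The scaling used here, the values as deposited and equal S. cerevisiae medians differ only by shifts of whole arrays. Such shifts cannot move a gene relative to the median gene, so only the loess curve bears on that. With it ANB1 stood at -0.81, against -1.14 here, and the other 7 tested genes stayed above the median gene.

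**Figure D5:**
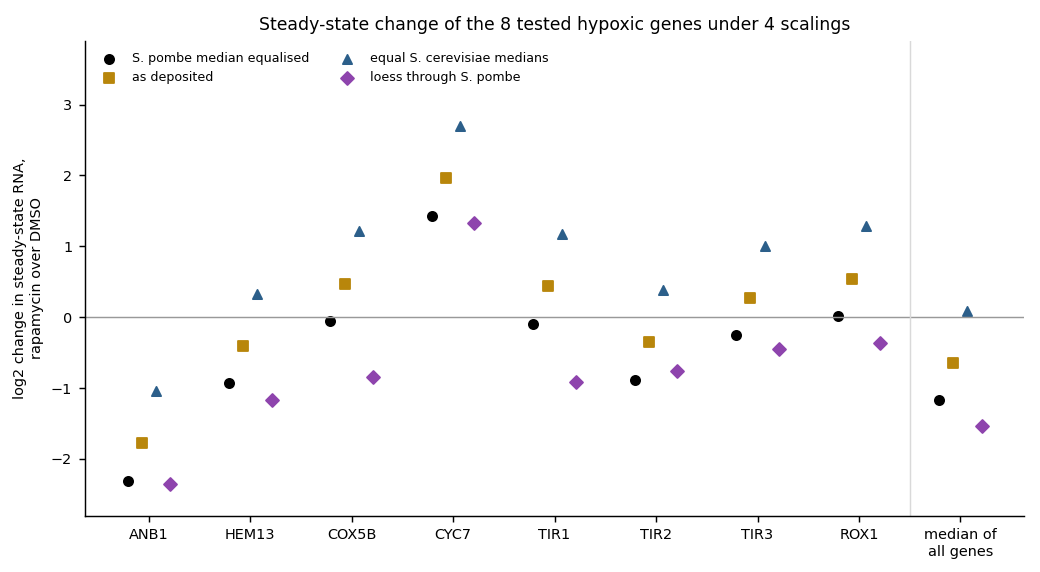
Steady-state changes of the 8 tested hypoxic genes under 4 scalings of the arrays. The vertical axis is the log2 change, rapamycin over DMSO, in Taf4-labelled steady-state RNA, each symbol is a scaling, and the last position gives the median of all tested genes. ANB1 is below 0 and CYC7 above 0 under all 4, while the symbols of the other 6 genes lie on both sides of 0.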

How the data were processed

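The 16 deposited array columns hold linear intensity values. Affymetrix Expression Console 1.4.1 is named in the submitters' processing notes; the sources used here do not give the summary method, the background correction or the annotation build. The authors' columns have a mean, after trimming 2% at each end, of about 500 or 100 signal units over both species, so part of any common S. cerevisiae change is scaled out. Of 10928 probe sets, 7244 had 1 gene symbol, 1 several and 3683 none; Entrez identifiers matched 5498 to 5449 S. cerevisiae genes of assembly R64, and 1746 carried S. pombe names. Each hypoxic gene had 1 probe set.

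Intensities were log2-transformed with no pseudocount and shifted to an equal S. pombe median per array. A filter removed the 20% of genes with the lowest mean, and 4360 were tested. The 8 Taf4-labelled arrays were fitted in 1 model with limma 3.58.1 in R 4.3.3 (lmFit, eBayes, two-sided, Benjamini-Hochberg over all genes tested, threshold 0.05). The number of arrays limits the precision. The fit was also run on simulated data with independent normal noise. That simulation held no uneven spike-in, so it cannot show how the unevenness bears on the steady-state calls. The members, gene lists and tests were chosen with earlier results of these data known. All members are named, and list genes where they passed or a result turns on them; genes most like ANB1 are the 5 nearest. Alternatives were 3 scalings (loess span 0.7), no filter, a 40% filter, averaged probe sets, an intensity trend in eBayes, a fit per fraction, the 10 distinct arrays with rapamycin as the only term, a replicate block, and fits without 1 array at a time.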

Additional observations from a re-analysis of the deposited data

How the results depend on the processing

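ANB1 kept its direction and its call under the 13 alternatives within steady-state RNA (-2.45 to -1.04, adjusted p up to 0.00145 by limma), CYC7 under its 13 (1.30 to 2.70) and AAC3 under its 7 (-1.89 to -0.53), which were added after seeing the data. The fit of 10 distinct arrays mixes both fractions, newly synthesized arrays that chose ANB1 included, and so gives no separate support; there ANB1 passed as lower (adjusted p = 0.0278) and CYC7 lost its call (0.71, adjusted p = 0.211). HEM13 lost its call in that fit (-0.85, adjusted p = 0.0583), and TIR2 there (-0.46, 0.135) and with the values as deposited (-0.35, 0.0549). With equal S. cerevisiae medians the sign of a called change turned for HEM13 (0.33), TIR2 (0.39), DAN1 without the filter (0.10), HAP1 (0.53), MOT3 (0.66), TUP1 (0.20), SPT23 (0.49), DAN2 (0.57), OLE1 (0.26), FRD1 (0.22), HEM3 (0.25) and HEM15 (0.17), and COX5B (1.21), TIR1 (1.18), TIR3 (1.01), HYP2 (0.87), PET9 (0.90) and HAP2 (1.11), which were not called, turned and passed as higher; that scaling sets the common fall to about 0 by construction.

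Counts moved by over 1.5 times as follows. With the values as deposited, 4 hypoxic genes were higher in steady-state and 2 in newly synthesized RNA, 2 counterparts and 1 regulator were higher, and 2 hypoxic genes had a difference between fractions above 0, with 5 (rapamycin) and 4 (DMSO) above 0 in newly synthesized over steady-state RNA. With equal S. cerevisiae medians, 5 hypoxic genes were higher and 1 lower in steady-state, and 4 higher and 1 lower in newly synthesized RNA; 4 counterparts and 5 regulators were higher, 3 regulators, 1 other low-oxygen gene and 4 heme synthesis genes lower, 1 difference was above 0, and newly synthesized over steady-state RNA was above 0 for 6 (rapamycin) and 7 (DMSO). With loess, 5 hypoxic genes and 5 counterparts were lower in steady-state RNA, and newly synthesized over steady-state RNA was above 0 for 1 (rapamycin) and 0 (DMSO). With no filter, 5 of 10 hypoxic and 13 of 14 other low-oxygen genes were lower. With the lowest 40% left out, newly synthesized over steady-state RNA with rapamycin was above 0 for 1. In the fit of 10 distinct arrays, 1 hypoxic gene was lower and 0 higher in either fraction, and 2 regulators and 3 other low-oxygen genes were lower. With an intensity trend 3 counterparts were lower. Without 1 array at a time, 3 to 5 differences were above 0, 1 to 2 counterparts were lower and 0 to 1 higher, and 0 to 1 regulators were higher; no hypoxic gene's steady-state call was lost. The cause of these shifts was not tested.

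Same-numbered replicates share only a number in the labels: the correlation of their deviations was 0.17 between the steady-state groups and 0.13 between the newly synthesized groups over 4360 genes, and as low as -0.02 between other groups. With the replicate number as a block, 3 hypoxic genes were lower and 1 higher in steady-state RNA, ANB1 again by -2.31 (adjusted p = 2.7e-11 by limma), and 3 counterparts were lower, AAC1 and in addition HYP2 (adjusted p = 0.0279) and PET9 (adjusted p = 0.0499). Probe sets at the bottom of the scale, such as that of DAN1, carry no detection call in the values used here, and differences there are the least certain.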
